A study of Mus musculus with 8 samples.

Results

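The 10 genes described here encode chemokine ligands made by myeloid cells of the spleen: Ccl3, Ccl4, Ccl5, Ccl6, Ccl9, Ccl17, Ccl22, Ccl24, Cxcl9 and Cxcl16. They were chosen by symbol, all 10 were found, and they are 10 of the 13786 protein-coding genes in a table of raw RNA-seq counts. The counts came from CD11c+ cells of the spleens of 4 C57BL/6 and 4 B6.SLE123 mice, all female and 7 weeks old, with no treatment named for either strain. B6.SLE123 mice carry the lupus susceptibility intervals Sle1, Sle2 and Sle3 of a lupus-prone donor strain on the C57BL/6 background. The comparison cannot separate the 3 intervals from one another or from any other difference between the strains. The strain was read from the sample names, because the genotype entries count upward by 1 from mouse to mouse. The comparison asks which chemokine transcripts of CD11c+ splenocytes differed between the lupus-prone strain and the control strain.

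Chemokines are small secreted proteins that bind G protein-coupled receptors and direct the movement of leukocytes. The family is divided by the spacing of the first conserved cysteines, which are adjacent in CC chemokines and separated by a single residue in CXC chemokines. Dendritic cells and macrophages of the spleen are sources of several of them, and Ccl22 and Ccl17 in particular are known as products of dendritic cells. Cxcl9 is a classic target of interferon-gamma, whereas Ccl3 and Ccl4 are induced by inflammatory stimuli in many leukocytes.

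In B6.SLE123 mice the ligands split into opposite directions. Ccl22, Cxcl9 and Cxcl16 were higher, with Ccl22 at 1.996-fold (0.997 on the log2 scale ± 0.12 SE, n = 4 mice per strain), while Ccl24, Ccl3, Ccl4, Ccl6 and Ccl9 were lower, with Ccl24 at 7.20-fold (fell by 2.85 on the log2 scale ± 0.25 SE). Ccl5, the most abundant of the 10 per length, and Ccl17, the least abundant, did not pass the test. Thus 8 of 10 passed the quasi-likelihood test of edgeR (threshold 0.05, adjusted by Benjamini-Hochberg over all genes), as did 53.4% of all genes tested. In direction, 3 of 10 were higher (26.7% of all genes were) and 5 of 10 were lower (26.6% of all genes were). With a more than 2-fold change also required, 0 of 10 were higher, against 2.76% of all genes, and 3 of 10 were lower, against 8.29%. The strains were fully apart, with no overlap of their 4 values, for 7 ligands and for 48.9% of all genes. The median log2 fold change, B6.SLE123 over C57BL/6, was -0.41 over the 10 ligands and -0.0019 over all genes.

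The sequences that place each ligand in its class are shown first, because the genes that differed fall in both classes. Each run of 30 coding bases, 5′ to 3′ on the strand of the gene, holds the first conserved cysteine codons in capitals, as found by a search of the GENCODE M21 transcripts (mm10).
Ccl24: ccctcatctTGCTGCacgtcctttatttcc
Ccl4: cccacttccTGCTGTttctcttacacctcc
Ccl22: gacagtatcTGCTGCcaggactacatccgt
Cxcl9: aatgcacgaTGCtccTGCatcagcaccagc
Cxcl16: gctggaagtTGTtctTGTgatcgtaccatt

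The Ccl24 run lies at chr5:135572650-135572679, the Ccl4 run at chr11:83663473-83663502, the Ccl22 run at chr8:94746925-94746954, the Cxcl9 run at chr5:92326830-92326859 and the Cxcl16 run at chr11:70459115-70459144. All 5 lie within exon 2 of their transcripts. By this search 8 of the 10 ligands had adjacent cysteine codons and 2, Cxcl9 and Cxcl16, had a codon between them. Near-identical copies can share reads, but over the 45 pairs of ligand transcripts the longest identical run was 25 bases, between Ccl6 and Ccl9. Coding sequences of Ccl3 and Ccl4 were identical at 68.1% of aligned bases, those of Ccl6 and Ccl9 at 65.1% and those of Ccl17 and Ccl22 at 50.8%.

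No ligand lies on chromosome 1, 4 or 7, where Sle1, Sle2 and Sle3 were mapped. Ccl5, Ccl9, Ccl6, Ccl3 and Ccl4 lie next to one another on chromosome 11, from chr11:83525778-83530518 (Ccl5) to chr11:83662584-83664683 (Ccl4). Cxcl16 lies elsewhere on the same chromosome, at chr11:70453983-70459984, Ccl22 and Ccl17 lie at chr8:94745590-94751699 and chr8:94810453-94812036, and Cxcl9 and Ccl24 lie at chr5:92321347-92328079 and chr5:135569937-135573049 (mm10).

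Counts summed to between 25761789 and 32931045 per C57BL/6 mouse and between 25563070 and 37367094 per B6.SLE123 mouse. In C57BL/6 mice Itgax, which encodes CD11c, averaged 1329 CPM ± 77.9 (SD, n = 4), and in B6.SLE123 mice 1543 ± 93.4, and the dendritic cell genes Flt3 and Zbtb46 were present in both strains. CPM scales the counts of a gene to a fixed library size, after TMM factors. Pairs of mice within a strain differed by more than counting noise (chi-square per degree of freedom 4.96 to 18.9), so each was kept as a replicate. The labels name the cells dendritic cells, but genes of red pulp macrophages such as Vcam1 were also abundant, as given with the marker lists. Selection on CD11c also keeps some macrophages, monocytes and other cells, and in bulk RNA fewer cells of a type and less RNA per cell cannot be told apart.

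**Figure D1:**
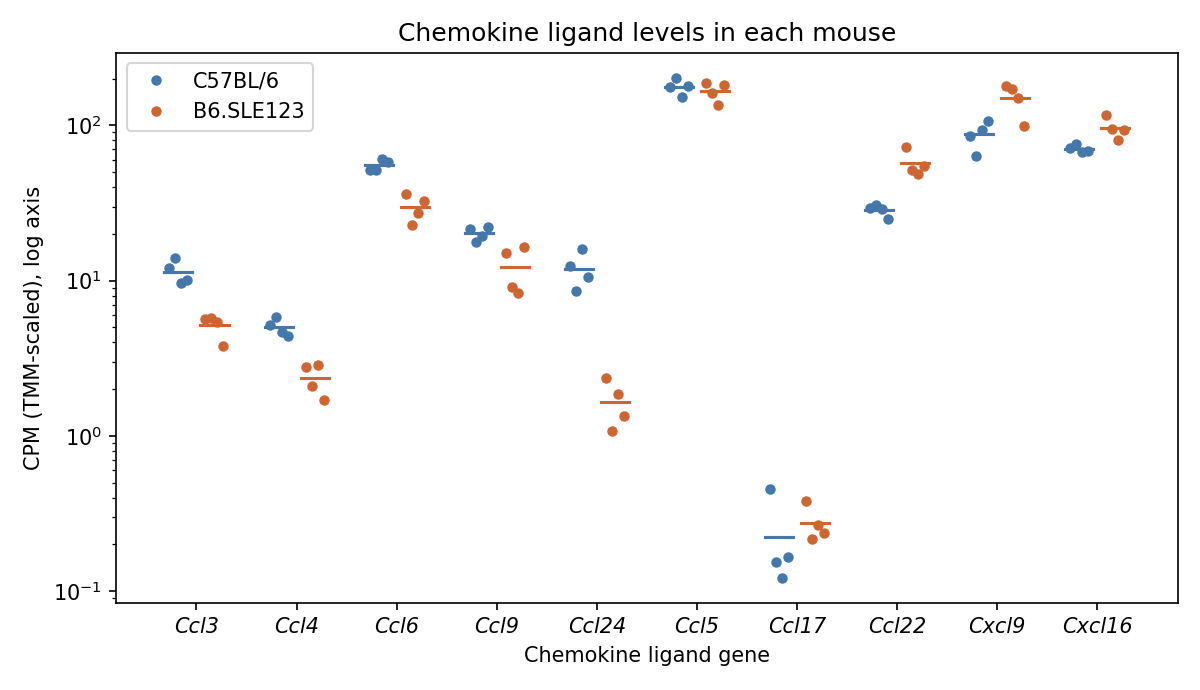
CPM (log axis) of the 10 chemokine ligand genes in each mouse, with the 4 C57BL/6 mice in blue and the 4 B6.SLE123 mice in orange, and short lines for the means. The strains are apart for Ccl3, Ccl4, Ccl6, Ccl9 and Ccl24, which were lower in B6.SLE123 mice, and for Ccl22 and Cxcl16, which were higher.

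Ccl24, also called eotaxin-2, attracts eosinophils through Ccr3 and is made by alternatively activated macrophages. It was at 12.4, 8.60, 15.9 and 10.6 CPM in the C57BL/6 mice and at 2.34, 1.08, 1.86 and 1.34 CPM in the B6.SLE123 mice. The lupus-prone mice were all below the controls, with a gap between 2.34 and 8.60 CPM. The mean fell from 11.9 CPM ± 3.12 (SD, n = 4) to 1.65 ± 0.563, and the log2 fold change was -2.85 ± 0.25 (SE; 95% interval -3.39 to -2.31; adjusted p = 4.24e-06, edgeR). Ranked by CPM per kb of exon length among all genes of the table, Ccl24 went from percentile 62.8 in C57BL/6 mice to percentile 27.3 in B6.SLE123 mice. Counts behind these values ran from 224 to 523 in C57BL/6 mice and from 34 to 74 in B6.SLE123 mice.

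Ccl3 and Ccl4, the macrophage inflammatory proteins 1-alpha and 1-beta, are CC chemokines that attract monocytes and T cells, and Ccl3 binds Ccr1. Ccl3 was at 12.03, 13.9, 9.64 and 10.1 CPM in C57BL/6 mice and at 5.70, 5.75, 5.44 and 3.78 CPM in B6.SLE123 mice. Ccl4 was at 5.15, 5.80, 4.64 and 4.402 CPM in C57BL/6 mice and at 2.78, 2.10, 2.87 and 1.69 CPM in B6.SLE123 mice. Neither gene overlapped between the strains, and B6.SLE123 replicate 4 was the lowest mouse for both. Ccl3 fell by 1.13 on the log2 scale ± 0.15 (SE; adjusted p = 0.000105, edgeR), from 11.4 CPM ± 1.95 to 5.17 ± 0.935 (SD, n = 4). Ccl4 fell by 1.07 on the log2 scale ± 0.17 (adjusted p = 0.000387), from 4.99 CPM ± 0.618 to 2.36 ± 0.564. Its log2 fold change was within 2-fold without C57BL/6 replicate 2 (-0.99) or B6.SLE123 replicate 4 (-0.96).

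Ccl6 and Ccl9, a pair of rodent CC chemokines that bind Ccr1, are made by macrophages and other myeloid cells. Ccl6 was at 51.9, 51.8, 60.8 and 57.8 CPM in C57BL/6 mice and at 36.0, 22.7, 27.2 and 32.8 CPM in B6.SLE123 mice. Ccl9 was at 21.4, 17.7, 19.5 and 22.1 CPM in C57BL/6 mice and at 15.0, 9.03, 8.37 and 16.6 CPM in B6.SLE123 mice. Both were lower in every B6.SLE123 mouse, and for Ccl9 the gap was narrow, from 16.6 in the highest B6.SLE123 mouse to 17.7 in the lowest C57BL/6 mouse. Ccl6 fell by 0.91 on the log2 scale ± 0.12 (SE; adjusted p = 0.000104, edgeR) and Ccl9 fell by 0.73 ± 0.20 (adjusted p = 0.00868). Without B6.SLE123 replicate 1 the log2 fold change of Ccl6 was -1.02, past 2-fold. Ccl6 overlaps E230016K23Rik on the other strand, and since the strand setting of the counting is not given in the sources used here, reads of the overlap are uncertain.

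Ccl22, the macrophage-derived chemokine, attracts Ccr4-bearing T cells and is a known product of mature dendritic cells. It was at 29.4, 30.7, 28.9 and 24.9 CPM in C57BL/6 mice and at 72.2, 51.6, 48.9 and 54.7 CPM in B6.SLE123 mice. The strains were apart, with the highest C57BL/6 mouse at 30.7 and the lowest B6.SLE123 mouse at 48.9 CPM. The mean rose from 28.5 CPM ± 2.52 to 56.8 ± 10.5 (SD, n = 4), a log2 fold change of 0.997 ± 0.12 (SE; 95% interval 0.74 to 1.25; adjusted p = 3.63e-05, edgeR). This value lies just under the 2-fold limit, which it passed in 6 of the 8 fits that left out 1 mouse, all but those without C57BL/6 replicate 4 (0.93) or B6.SLE123 replicate 1 (0.86), and in 0 of the other 6 alternative fits. Ccl17, which binds the same receptor, was at 0.454, 0.154, 0.122 and 0.165 CPM in C57BL/6 mice and at 0.380, 0.215, 0.266 and 0.236 CPM in B6.SLE123 mice. Its 4 to 12 counts per mouse overlapped between the strains, and the log2 fold change was 0.32 ± 0.45 (SE; 95% interval -0.67 to 1.31; adjusted p = 0.573), an interval that still holds a 2-fold rise at this depth.

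Cxcl9 attracts Cxcr3-bearing T and NK cells. It was at 85.6, 63.6, 93.7 and 107 CPM in C57BL/6 mice and at 179, 172, 151 and 99.3 CPM in B6.SLE123 mice. The strains overlapped, because B6.SLE123 replicate 4 lay below C57BL/6 replicate 4, while the other 3 B6.SLE123 mice were above every control. The mean rose from 87.4 CPM ± 18.1 to 150.1 ± 35.9 (SD, n = 4), a log2 fold change of 0.78 ± 0.18 (SE; 95% interval 0.37 to 1.19; adjusted p = 0.00435, edgeR).

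The stretch just before the Cxcl9 start site is shown because it held the most matches among the ligand promoters searched. RefSeq promoter sequence (GRCm38.p6) was given for 6 of the 10 ligands, namely Ccl3, Ccl6, Ccl9, Ccl17, Ccl22 and Cxcl9. The 150 bases upstream of Cxcl9, at chr5:92328080-92328229 and written 5′ to 3′ on the minus strand, carry in capitals the 2 matches to GGNNTTTCC, a form of the NF-kappaB motif.
Cxcl9 upstream: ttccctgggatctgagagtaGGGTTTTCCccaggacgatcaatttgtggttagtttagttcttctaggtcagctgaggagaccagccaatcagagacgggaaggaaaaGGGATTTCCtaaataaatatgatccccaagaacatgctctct

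The matches begin at positions -130 and -42 from the start site. Searched on both strands, GGNNTTTCC was in 5.82% of 32851 promoters of 300 bases and in 2 of the 6 ligand promoters, Cxcl9 and Ccl9. GAGGAAGT, an ETS and PU.1 motif, was in 3.2% of all promoters and in 0 of the 6. These matches describe the letters of the windows only, and the motifs do not overlap one another in them.

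Cxcl16 is made as a membrane-bound protein by dendritic cells and macrophages and binds Cxcr6. It was at 71.8, 75.5, 67.6 and 68.7 CPM in C57BL/6 mice and at 116, 94.6, 81.0 and 93.0 CPM in B6.SLE123 mice. All B6.SLE123 mice were above the highest control. The mean rose from 70.9 CPM ± 3.56 to 96.1 ± 14.5 (SD, n = 4), a log2 fold change of 0.44 ± 0.09 (SE; adjusted p = 0.00204, edgeR). Cxcl16 overlaps Zmynd15 on the other strand, a gene that is itself in the list of mature dendritic cell genes, and the reads of the overlap are uncertain.

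Ccl5, or RANTES, binds Ccr1 and Ccr3 and is made by T cells, NK cells and dendritic cells. It was at 176, 202, 152 and 179 CPM in C57BL/6 mice and at 188, 161, 135 and 181 CPM in B6.SLE123 mice, and the strains overlapped over most of their ranges. The log2 fold change was -0.09 ± 0.11 (SE; 95% interval -0.33 to 0.14; adjusted p = 0.491, edgeR), so the interval leaves out a change of 2-fold in either direction. The genes on the other side of Ccl5, Heatr9 at -0.17 and Taf15 at 0.03, also did not pass the test (adjusted p = 0.315 and 0.572). At the other end of the group, beyond Ccl4, Wfdc17 was lower (-0.42, adjusted p = 0.0110, edgeR). Wfdc18 after it did not pass (-0.49, adjusted p = 0.429, edgeR).

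**Figure D2:**
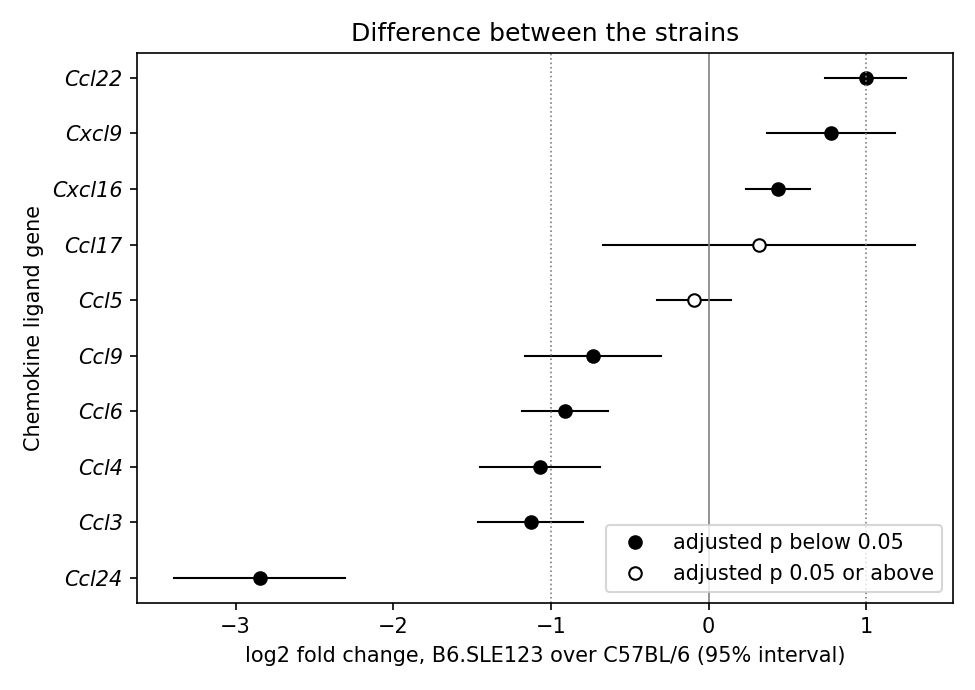
Log2 fold change, B6.SLE123 over C57BL/6, of the 10 ligand genes with 95% intervals from the edgeR fit (4 mice per strain), filled where the adjusted p is below 0.05 and with dotted lines at a 2-fold change. Ccl24 lies farthest from 0 at -2.85, Ccl22 lies on the upper dotted line, and the intervals of Ccl5 and Ccl17 cross 0.

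Per kb of exon length, the order of the ligands differed between the strains below Ccl5. In C57BL/6 mice Ccl5 led at 184 CPM per kb ± 21.3 (SD, n = 4), followed by Ccl6 at 31.0, Cxcl9 at 29.0 and Cxcl16 at 23.5. Neighbours in this order overlapped from Ccl6 through Cxcl16, and again from Ccl3 (14.9) through Ccl22 (12.3), Ccl24 (9.18), Ccl4 (7.57) and Ccl9 (6.63). Ccl17 was last at 0.435. In B6.SLE123 mice Ccl5 led at 173 CPM per kb, followed by Cxcl9 at 49.8, Cxcl16 at 31.8 and Ccl22 at 24.5, whose neighbours overlapped. Ccl6 came next at 16.5, apart from both neighbours, then Ccl3 at 6.75, Ccl9 at 4.02 and Ccl4 at 3.58, which overlapped as neighbours, then Ccl24 at 1.28 and Ccl17 at 0.534, each apart from the gene before it. Ccl22 thus stood at place 6 in C57BL/6 mice and at place 4 in B6.SLE123 mice, while Ccl24 stood at place 7 and at place 9.

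The share of each ligand in the summed level of the 10, on the scale of CPM per kb, shows the same exchange within each mouse without scaling between libraries. Ccl5 made up 57.7% ± 3.61 (SD, n = 4) of the sum in C57BL/6 mice and 55.5% ± 3.92 in B6.SLE123 mice. Cxcl9 made up 9.16% ± 2.13 and 16.0% ± 3.74, Cxcl16 7.37% ± 0.223 and 10.2% ± 0.278, and Ccl22 3.85% ± 0.377 and 7.81% ± 0.542. Ccl6 took 9.76% ± 1.26 in C57BL/6 mice and 5.30% ± 0.795 in B6.SLE123 mice, and Ccl24 took 2.92% and 0.410%. Shares of a sum depend on one another, so these are a description with no test.

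**Figure D3:**
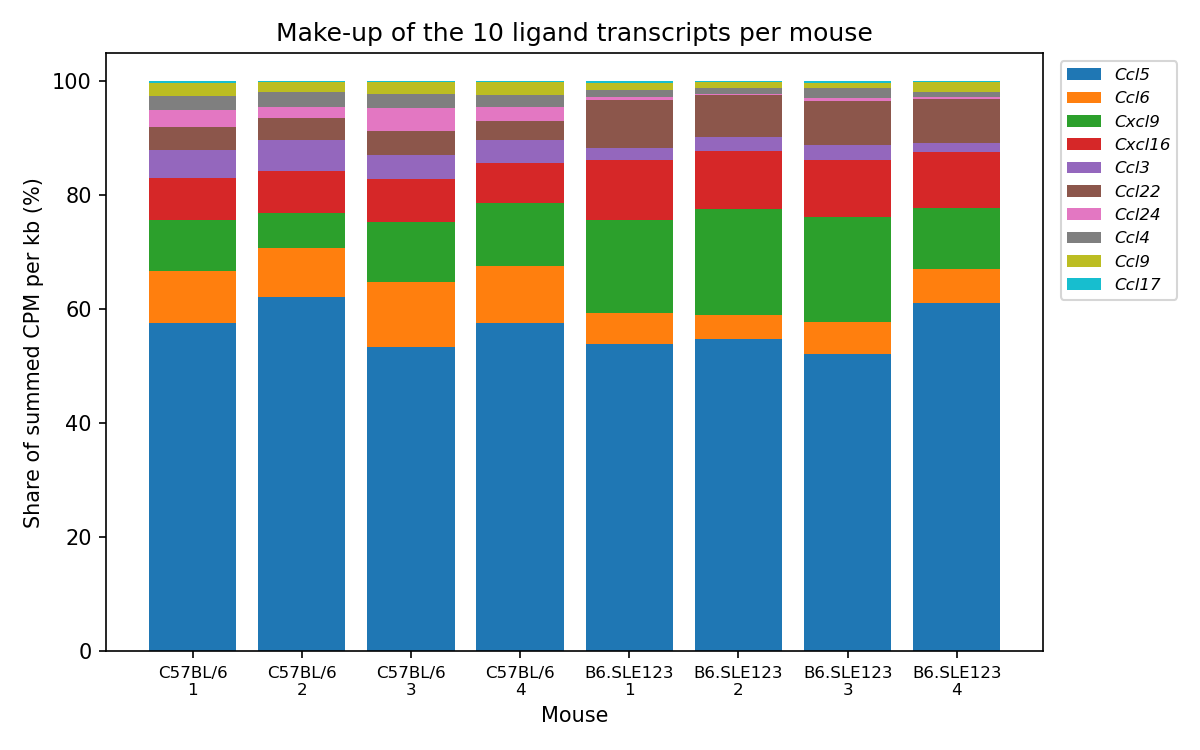
Share (%) of each ligand in the summed CPM per kb of the 10 ligands, 1 bar per mouse, with C57BL/6 mice at left and B6.SLE123 mice at right. Ccl5 fills over 50% of each bar, Cxcl9, Cxcl16 and Ccl22 take more of each B6.SLE123 mean than of the C57BL/6 mean, and Ccl6, Ccl3 and Ccl24 take less.

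Ratios between ligands that lie near one another and share a receptor were compared next. The log2 ratio of Ccl3 to Ccl4 was 1.18 ± 0.09 (SD, n = 4) in C57BL/6 mice and 1.14 ± 0.23 in B6.SLE123 mice, a difference of -0.05 (p = 0.714, exact two-sided permutation test, adjusted p = 0.714 over 3 ratios). For Ccl6 to Ccl9 the ratio was 1.46 ± 0.16 and 1.32 ± 0.29, a difference of -0.14 (exact permutation p = 0.457, adjusted p = 0.686). For Ccl17 to Ccl22 it was -7.06 ± 0.78 and -7.63 ± 0.18, a difference of -0.57 (exact permutation p = 0.171, adjusted p = 0.514). None of the 3 differences passed this test, whose smallest possible p is 0.0286, and with few counts of Ccl17 the last is the least precise. For that ratio C57BL/6 replicate 1 was at -5.96, above the other mice. With 5 counts added the difference was -0.79 (exact permutation p = 0.0286). Over the centred log2 CPM values of the 8 mice, Ccl3 and Ccl4 were the closest pair of ligands (root mean square difference 0.15), followed by Ccl6 and Ccl9 at 0.22 and by Ccl5 and Cxcl16 at 0.28.

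Another nearby pair was chosen after its values were seen. Cxcl10, which lies beside Cxcl9 on chromosome 5 and binds the same receptor, was lower in B6.SLE123 mice (17.1 CPM ± 3.27 against 11.9 ± 1.21, SD, n = 4), with a log2 fold change of -0.52 ± 0.13 (SE, adjusted p = 0.00569, edgeR). The log2 ratio of Cxcl9 to Cxcl10 was 2.49, 2.23, 2.30 and 2.37 in C57BL/6 mice and 3.91, 3.70, 3.62 and 3.27 in B6.SLE123 mice. The ratio was higher in every B6.SLE123 mouse, including replicate 4, whose Cxcl9 level lay within the control range. It is given without a test.

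**Figure D4:**
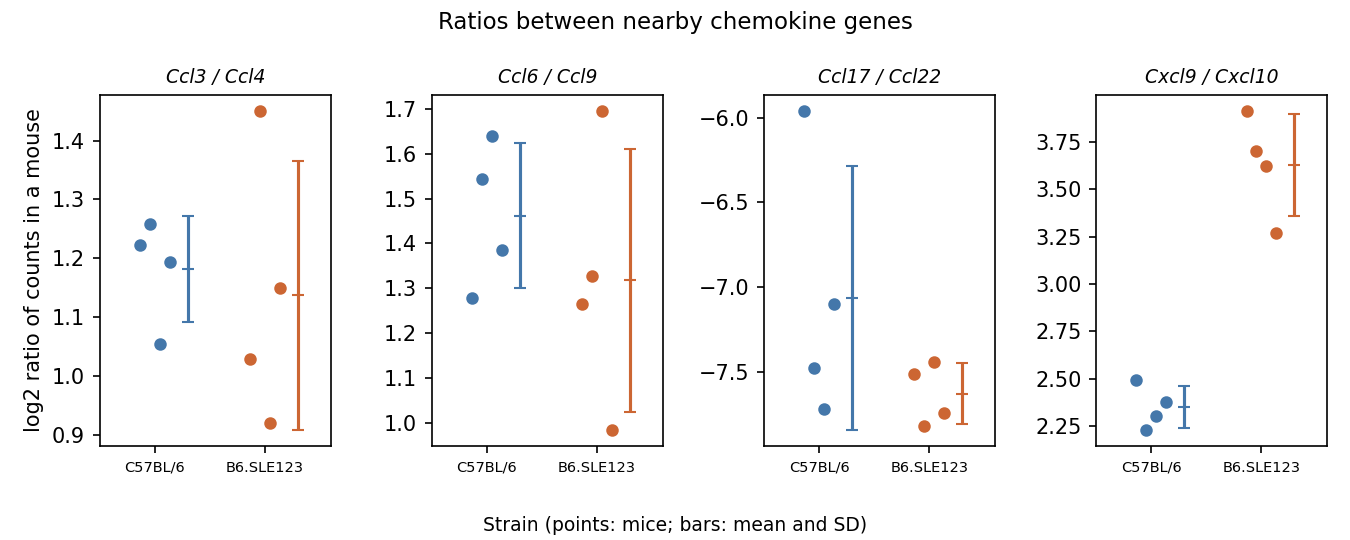
Log2 ratio of counts of nearby chemokine genes in each mouse (points, 4 per strain) with mean and SD (bars), for Ccl3 to Ccl4, Ccl6 to Ccl9, Ccl17 to Ccl22 and Cxcl9 to Cxcl10, each panel with its own axis. The strains overlap in the first 3 panels and are apart in the last, from at most 2.49 in C57BL/6 mice to at least 3.27 in B6.SLE123 mice.

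The genes nearest in pattern to the ligands at the extremes were found by the same root mean square difference over 8 mice among 10144 genes. Nearest to Ccl22 were Arc (0.10), Lzts2 (0.11) and Hsd11b1 (0.12), at 12.2, 4.54 and 3.24 CPM in C57BL/6 mice and 22.9, 7.97 and 7.02 CPM in B6.SLE123 mice. Nearest to Ccl24 were Mag (0.26), Garnl3 (0.28) and Il1a (0.28), at 9.38, 8.90 and 16.0 CPM in C57BL/6 mice and 1.34, 1.43 and 2.56 CPM in B6.SLE123 mice. Il1a encodes the cytokine interleukin-1 alpha.

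Of 28 other chemokine ligands listed, 12 were among the 13786 genes. Of these, 1 was higher, 5 were lower and 6 did not pass the test, with a median log2 fold change of -0.61. Among all genes 53.4% passed, 26.7% higher and 26.6% lower. The 1 higher was Cx3cl1, fractalkine, which lies between Ccl22 and Ccl17 (0.62 ± 0.24 SE, adjusted p = 0.0464, edgeR), a call that was lost in 7 of the 14 alternative fits, among them those without C57BL/6 replicate 1, 2 or 4 or B6.SLE123 replicate 1 or 4 (adjusted p of up to 0.134). The lower were Cxcl12, which retains Cxcr4-bearing cells (fell by 2.18 on the log2 scale, adjusted p = 0.00268), the neutrophil attractant Cxcl2 (fell by 1.71, adjusted p = 0.00222), Ccl27a (fell by 0.62), Ccl25 (fell by 0.59) and Cxcl10. Cxcl12 and Cxcl2 were low in both strains, at 1.54 CPM ± 1.10 and 1.14 ± 0.454 (SD, n = 4) in C57BL/6 mice and 0.341 ± 0.119 and 0.335 ± 0.137 in B6.SLE123 mice. C57BL/6 replicate 1 held 84 counts of Cxcl12 and the other controls 25 to 33, and without that mouse the log2 fold change was -1.56 (adjusted p = 0.00176).

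Of the receptors that bind the 10 ligands, Ccr3 and Cxcr3 moved in the direction of their ligands Ccl24 and Cxcl9. Other ligands of theirs did not: Ccl5, which also binds Ccr3, did not pass (-0.09), and Cxcl10, which also binds Cxcr3, was lower (-0.52). Ccr3 was at 316, 265, 367 and 295 CPM in C57BL/6 mice and at 39.5, 33.3, 55.8 and 70.8 CPM in B6.SLE123 mice. Its values did not overlap, and its mean fell from 311 ± 43.3 to 49.9 ± 16.9 (SD, n = 4), a log2 fold change of -2.65 ± 0.21 (SE, adjusted p = 2.20e-06, edgeR). Cxcr3 rose from 13.6 CPM ± 1.13 to 19.8 ± 3.29 (0.54 ± 0.12 SE, adjusted p = 0.00234). Ccr1 at -0.23 and Cxcr6 at -0.15 did not pass (adjusted p = 0.177 and 0.506, edgeR). Ccr4, the receptor of Ccl17 and Ccl22, was not among the 13786 genes, which were kept by a minimum count. Over 20 measured of 23 listed receptors, 6 were higher, 4 were lower and 10 did not pass, with a median log2 fold change of -0.08. Among all genes 53.4% passed, 26.7% higher and 26.6% lower. Past 2-fold were also Xcr1, the receptor of type 1 conventional dendritic cells (1.23, adjusted p = 8.44e-05), Ccr6 (1.005, adjusted p = 4.49e-06, past 2-fold in 7 of 14 alternative fits, which ran from 0.94 without B6.SLE123 replicate 4 to 1.07) and Ackr3 (1.12, adjusted p = 0.0421), the last lost in 8 of 14 alternative fits, among them those without any 1 of the C57BL/6 mice or without B6.SLE123 replicate 1 or 4 (adjusted p of up to 0.122), and Ccr10, which is at less than 1 CPM (fell by 1.87, adjusted p = 0.00996).

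**Figure D5:**
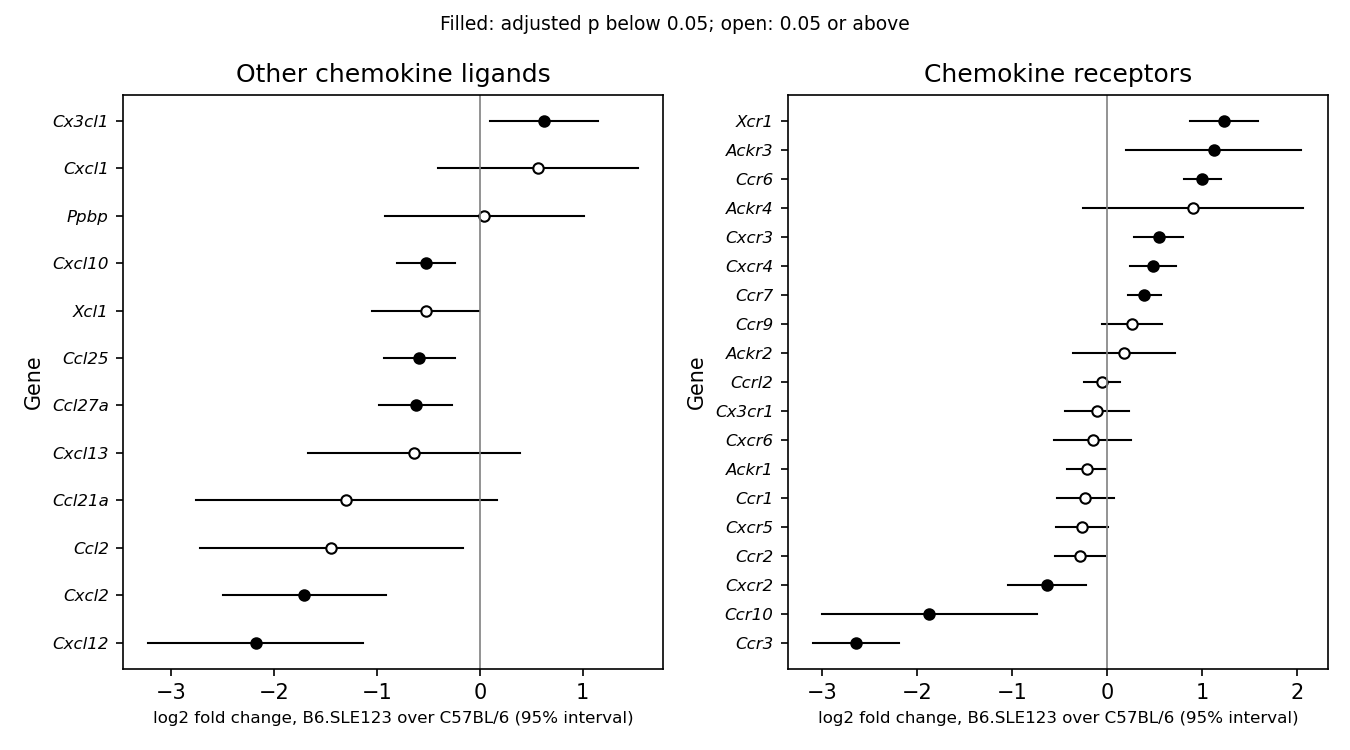
Log2 fold change, B6.SLE123 over C57BL/6, with 95% intervals from the edgeR fit (4 mice per strain) for the 12 other chemokine ligands (left) and 19 of the 20 chemokine receptors (right) measured, filled where the adjusted p is below 0.05. Ccr3 at -2.65 and Xcr1 at 1.23 lie at the ends of the receptor panel, and Cx3cl1 at 0.62 is the only filled point above 0 among the ligands.

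Many markers of other cell types were lower in B6.SLE123 mice beside the lower ligands. Of 10 red pulp macrophage genes, 10 were lower and 0 higher, and their summed level was 11718 to 14959 CPM per C57BL/6 mouse and 1650 to 3288 per B6.SLE123 mouse, with Vcam1 falling from 2471 CPM to 453 and Csf1r from 2324 to 515 (log2 fold change -2.45 and -2.18). All 4 marginal zone macrophage genes were lower (319 to 401 and 56.9 to 105 CPM), among them Nr1h3 (-2.41) and Siglec1 (-1.77). Of 8 monocyte genes 3 were lower (791 to 875 and 447 to 606 CPM), with Treml4 at -1.05 (-0.99 without C57BL/6 replicate 3) and Nr4a1 at -0.88. Treml4 and Nr4a1 made up much of that sum, at 335 and 288 CPM in C57BL/6 mice and 161 and 157 in B6.SLE123 mice. The other 5 did not pass, namely Ly6c2 (-0.09), Ccr2 (-0.29), Cx3cr1 (-0.10), Ace (-0.12) and F13a1 (-0.06). Of all genes 53.4% passed and 26.6% were lower. Of 6 neutrophil genes 4 were lower (129.9 to 144 and 36.6 to 54.0 CPM), with Csf3r at -1.61 and Mmp9 at -2.17. Csf3r and Mmp9 made up most of that sum, at 76.5 and 47.0 CPM in C57BL/6 mice and 25.2 and 10.6 in B6.SLE123 mice. S100a8 (-0.25) and S100a9 (-0.23) did not pass, and their values overlapped between the strains. Of 4 eosinophil genes 3 were lower and 1 higher (271 to 374 and 37.1 to 74.8 CPM), of which Ccr3 made up most, with Il5ra at -1.32. Their part in the lower Ccl24, Ccl3, Ccl4, Ccl6 and Ccl9 was not tested. No measured gene of these lists was at 0 in every mouse of a strain, but Ly6g (neutrophils) and Epx (eosinophils) were not among the 13786 genes.

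Dendritic cell markers moved in both directions beside the higher ligands, where 26.7% of all genes were higher and 26.6% lower. Of 10 mature Ccr7-positive dendritic cell genes, 7 were higher and 0 lower (1457 to 1700 and 1901 to 2190 CPM), with Fscn1 at 0.82 and Relb at 0.32. Of 8 type 1 conventional dendritic cell genes, 6 were higher and 1 lower (3257 to 3729 and 4907 to 6334 CPM), with Wdfy4 at 0.85 and Irf8 at 0.48. Wdfy4 made up most of that sum, with means of 1851 CPM in C57BL/6 mice and 3344 in B6.SLE123 mice. The values of Irf8 overlapped between the strains. The lower gene was Batf3 (-0.14, adjusted p = 0.0384, edgeR), and Cadm1 did not pass (-0.18). Of 7 type 2 conventional dendritic cell genes, 0 were higher and 3 lower (2068 to 2241 and 1188 to 1461 CPM), with Sirpa at -0.91. Sirpa made up most of that sum, with means of 1784 CPM in C57BL/6 mice and 950 in B6.SLE123 mice. Irf4 did not pass (0.07, adjusted p = 0.509, edgeR), nor did Clec4a4 (0.22), Esam (-0.17) and Clec10a (-0.40). Their part in the higher Ccl22, Cxcl9 and Cxcl16 was not tested.

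Response genes were counted as well, since Ccl3, Ccl4 and Cxcl9 are induced by stimuli. Over all genes, 26.7% were higher and 26.6% lower. Of 12 genes that respond to tissue handling, 2 were higher and 7 lower (1908 to 2495 and 1124 to 1888 CPM), with Zfp36 at -1.27 and Junb at -0.34. Of 11 interferon-gamma response genes, 2 were higher and 2 lower (1638 to 1810 and 1943 to 2276 CPM), with a median log2 fold change of 0.0014. The higher were Ciita (0.50) and Socs1 (0.60), the lower were Gbp3 (-0.83) and Cxcl10 (-0.52), and Irf1 did not pass (0.0031, adjusted p = 0.975). Without Ciita, the most abundant, the summed level of the other 10 genes overlapped between the strains (759 to 904 and 678 to 884 CPM). Of 11 genes of NF-kappaB activation, 5 were higher and 5 lower (2464 to 2619 and 2652 to 2947 CPM), with Nfkb1 at 0.32. Past 2-fold, 0 were higher and 3 were lower, namely Il1a (-2.65), Cxcl2 (-1.71) and Il1b (-1.16). The part of these responses in the ligand levels was not tested.

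The remaining marker lists covered plasmacytoid dendritic cells, lymphocytes and red cells, and are read beside the 26.7% of all genes that were higher and the 26.6% that were lower. Of 7 plasmacytoid dendritic cell genes 1 was higher and 2 lower (326 to 356 and 293 to 354 CPM), with Tcf4 and Bst2 not past the test (-0.15 and 0.13). The higher was Siglech (0.45), whose values overlapped between the strains. The lower were Cox6a2 (-2.71, from 34.3 CPM in C57BL/6 mice to 5.28 in B6.SLE123 mice) and Klk1 (-1.50, from 4.05 to 1.41). Of 6 B cell genes 0 were higher and 5 lower (449 to 537 and 301 to 384 CPM), with Ms4a1 not past the test (-0.09). Of 7 T cell genes 1 was higher and 1 lower, with Tcf7 at 0.75 and Cd4 not past the test (0.20). The lower was Lck (-0.37), and Cd3e, Cd3d and Cd3g did not pass (-0.49, -0.32 and -0.21). Cd4 and Tcf7 were at 258 and 81.8 CPM in C57BL/6 mice, where Cd3e, Cd3d and Cd3g were at 4.13, 2.77 and 3.76. For the 7 NK cell genes, sources of Ccl5, edgeR called 0 (71.1 to 97.3 and 57.4 to 84.7 CPM summed), as did DESeq2 and limma-voom, while 1, Klrk1, had an unadjusted p below 0.05 in edgeR. Klrk1 was at -0.23 and Gzma at -0.06 on the log2 scale. All 7 erythroid genes were lower, with Hbb-bs at -3.03 and Hba-a1 at -2.24, and Hba-a2 was at 0 in every B6.SLE123 mouse.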

How the data were processed

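CD11c+ splenocytes of 8 mice were sequenced. The authors used cutadapt for trimming, STAR for alignment (mm10) and featureCounts for counting. The deposited table holds raw counts of 13786 protein-coding genes, each with a strain median of at least 5 in the strain where it was higher. It also holds the authors' DESeq2 comparison (mean, log2 fold change, its error, statistic, p-values and fold change), which was not used. The 10 ligands and all gene lists were chosen with earlier results of these data known.

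After TMM scaling, edgeR 4.0.16 (R 4.3.3) was run on all genes without a filter, with a threshold of 0.05 after Benjamini-Hochberg adjustment. The script was tested on simulated data. Log2 CPM used a prior count of 2, and ratios added 0.5 to each count. CPM per kb used union exon lengths of GENCODE M21, in which 13663 genes had the same coordinates. Symbols turned into dates were restored for 21 genes. Named were all ligands, the receptors that bind them, other ligands and receptors changed more than 2-fold, the 2 most abundant genes of each marker list, and the 3 genes nearest Ccl22 and Ccl24 above 5 CPM. Some items that this rule names are not reported here. Cxcl10, Cx3cl1, Ccl25, Ccl27a, Ccr10, Il1b, Gbp3, Socs1, Heatr9, Taf15 and Hba-a2 were added after their values were seen. So were Ly6c2, Ccr2, Cx3cr1, Ace, F13a1, Clec4a4, Esam, Clec10a, Siglech, Cox6a2, Klk1, Wfdc17 and Wfdc18. The same holds for S100a8, S100a9, Batf3, Cadm1, Lck, Cd3e, Cd3d and Cd3g. Alternatives were RLE factors, library totals alone, a minimum of 10 counts per sample, a replicate block, limma-voom 3.58.1, DESeq2 1.42.0, a threshold of 0.01, 5 counts added in ratios, and each mouse left out.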

Additional observations from a re-analysis of the deposited data

Results flagged for a closer look

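Ccl3 in B6.SLE123 replicate 4 lay apart from the other mice of its strain, at 1.94 log2 CPM against a group median of 2.49. Such gaps were sought in 58 sets of 4 mice (ligand levels, ratios and summed marker levels in each strain), of which 2.9 would be found by chance and 1 was found. The fall of Ccl3 passed the test without that mouse too.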

How the results depend on the processing

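All 139 log2 fold changes of the 10 ligands over 14 alternative fits kept sign and call, and 8 ligands passed in each fit and at a threshold of 0.01. The count past 2-fold was 3 or 4, as Ccl22, Ccl4 and Ccl6 lie near that limit. With at least 10 counts in every sample, Ccl17 was left out and 12053 genes were tested. Over all genes, 5365 to 7376 passed. Whether the replicate numbers pair the mice was not settled. Correlations of same-numbered mice were 0.0763 to 0.237 and 2 of 4 exceeded 0.1, while those of differently numbered mice ran from -0.262 to 0.103. With the number as a block 8 ligands and 7183 genes passed. The log2 ratio of Ccl17 to Ccl22 differed by -0.79 with 5 counts added (exact permutation p = 0.0286, the smallest possible), and by -0.78 to -0.20 with 1 mouse left out. That of Ccl3 to Ccl4 differed by -0.15 to 0.027 with 1 mouse left out, and turned its sign without B6.SLE123 replicate 3. The cause was not tested. Of 823 values of 59 other genes, 788 kept direction and call, 16 lost the call (mostly Ackr3 and Cx3cl1) and 8 gained it (Tcf4, Bst2, Cd4, Klrk1), while 11 turned their sign in genes that did not pass: with 1 mouse left out Irf4 was -0.021 (without B6.SLE123 replicate 4) to 0.12, Gzma -0.35 to 0.30 and Irf1 -0.054 to 0.049, and Irf1 was -0.0024 with library totals alone and -0.0096 with the count minimum. Depth limits Ccl17, at 4 to 12 counts.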
